A study of Mus musculus with 16 samples.

Results

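Gadd45a, Gadd45b and Gadd45g encode the 3 members of the Gadd45 family, and their transcripts were followed across all 16 poly(A) RNA sequencing libraries of mouse C2C12 cells. The genes were chosen by name, and they were selected on a measured value: the level of Gadd45g in growing mutant cells, which was above that of growing control cells. They are 3 of 35275 genes in the table, and all 3 were among the 11832 genes whose mean over the libraries reached 0.5 FPKM (fragments scaled to gene length and to the library's total). C2C12 is an established mouse myoblast line, here a PAX7-negative stock kept in medium with 20% foetal bovine serum. One genotype was wild type, as control population 1 and control population 2, and the other was a triple knockout (tKO) lacking miR-206 and both copies of miR-1a (miR-1a-1, miR-1a-2), as clone 1 and clone 2. Each of these 4 lines was sampled while growing (GM, about 80% confluent) and after 3 days in 2% horse serum (DM3), each time as replicates BR1 and BR2. Each of the 4 groups, of which 2 are GM and 2 are DM3, therefore holds 4 libraries from 2 lines. Each tKO line is 1 clone, while the controls are populations, so effects of cloning and of the deletion cannot be told apart. Nothing in the labels says whether BR1 and BR2 were separate cultures, so the p-values measure the spread between these libraries, which may be technical in part.

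Gadd45 proteins are small, acidic nuclear proteins without enzyme activity of their own, induced by DNA damage and other stresses and acting through the proteins they bind. They bind and switch on the kinase MAP3K4 upstream of p38 and JNK, bind PCNA, p21 and the CDK1 and cyclin B1 complex, and take part in DNA repair and active DNA demethylation. Gadd45a is a classical p53 target and also responds to ATF4, Gadd45b is known as a target of NF-kB and TGF-beta, and Gadd45g was described as a cytokine-responsive gene. In skeletal muscle, Gadd45a is known for its induction by ATF4 during denervation and other forms of atrophy. miR-206 and miR-1 are the muscle microRNAs that rise as myoblasts differentiate, and they share a seed.

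The libraries held 22642563 to 56585952 fragments. The deleted microRNA genes were not analysed here, so the genotype labels were not checked against them. The myogenic regulator Myf5 measured 17.0 ± 3.07 FPKM in control GM (SD, n = 4), whereas Myod1 was listed at 0 in all 4 of those libraries and reached 1.90 ± 0.996 FPKM in control DM3. The muscle genes Myog and Ckm were below 1 FPKM on average in both GM groups and rose in DM3 in both genotypes (limma adjusted p = 2.4e-05 and 9.14e-07 in control cells). Des and Acta1 also rose in both genotypes but already measured 39.5 and 8.48 FPKM on average in control GM. Actc1 did not pass in control cells (log2 difference 0.56, limma adjusted p = 0.358), Myf5 passed in neither genotype, and Pax7 stayed near 0. The fibroblast markers Col1a1 and Pdgfra were also expressed, and the summed FPKM of 4 fibroblast markers was 371 to 686 for control and 241 to 554 for tKO cells in GM, and 1066 to 1296 for control and 699 to 1825 for tKO cells in DM3. Col1a1 made up most of that sum (511 FPKM on average in control GM), and members of lower level differed by genotype: Pdgfra measured 3.23 FPKM in control and 0.778 FPKM in tKO GM (log2 difference −1.27, limma adjusted p = 0.00477), and Dcn, encoding the matrix protein decorin, measured 30.1 and 9.50 FPKM in DM3 (−1.65, limma adjusted p = 0.0145). Their part in the Gadd45 values was not tested. Thy1 and the 3 endothelial markers were near 0 in every group, and of the 2 leukocyte markers only Cd68 reached 1 FPKM. In such bulk samples a change in the share of cells that express a gene cannot be told apart from a change in RNA per cell.

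The microRNA sequence is shown because the deleted microRNA could pair with a transcript of the family. The promoters are shown because the 3 genes moved together between libraries of the same stage. Whether their letters have a part in that movement was not tested. Mature miR-206 (RefSeq, GRCm38.p6, chr1:20679055-20679076, plus strand) reads, with its seed of bases 2 to 8 in capitals:
miR-206-3p: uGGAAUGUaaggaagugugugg
The annotated 3′ UTR of Gadd45b (558 bases) holds one ACATTCCA, the DNA letters that pair with the seed followed by an A. It lies at UTR positions 533 to 540, counted from the first base after the stop codon, at chr10:80932179-80932186 (GRCm38, plus strand) in exon 4 of 4. The match stands in capitals in its 30-base surroundings, with the letters aataaa of the common polyadenylation signal overlapping its end:
Gadd45b 3′ UTR: ctactacagagACATTCCAataaactcgtt
Among 21037 genes with an annotated 3′ UTR, 3.8% hold the same 8 letters, 10.1% hold ACATTCC and 11.8% hold CATTCCA. The 3′ UTRs of Gadd45a (563 bases) and Gadd45g (489 bases) hold none of them. A match is a description of the letters and not a measured target site.

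In the table, Gadd45a (ENSMUSG00000036390) lies on chromosome 6 at 67035096 to 67037457 on the minus strand, Gadd45b (ENSMUSG00000015312) on chromosome 10 at 80930091 to 80932204 on the plus strand, and Gadd45g (ENSMUSG00000021453) on chromosome 13 at 51846678 to 51848468 on the plus strand. Build mm10 is named in the submitters' processing notes. Gadd45a is overlapped on the other strand by the noncoding gene E230016M11Rik, whose level stayed at or below 0.244 FPKM in every library. Whether counting used strand is not given in the sources used here. The 250 bases before each RefSeq start (GRCm38.p6) follow in the direction of the gene, with CCAAT and the octamer ATTTGCAT or its complement ATGCAAAT in capitals. The RefSeq start of Gadd45a differs from that in the table, so the end of its window, 67037457 to 67037408, lies inside the gene as listed above.
Gadd45a, chr6:67037408-67037657, minus strand: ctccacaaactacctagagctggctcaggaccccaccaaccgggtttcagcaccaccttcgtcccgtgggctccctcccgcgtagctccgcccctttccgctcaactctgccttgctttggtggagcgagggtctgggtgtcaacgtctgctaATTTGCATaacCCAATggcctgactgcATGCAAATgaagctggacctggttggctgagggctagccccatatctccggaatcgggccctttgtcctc
Gadd45b, chr10:80929841-80930090, plus strand: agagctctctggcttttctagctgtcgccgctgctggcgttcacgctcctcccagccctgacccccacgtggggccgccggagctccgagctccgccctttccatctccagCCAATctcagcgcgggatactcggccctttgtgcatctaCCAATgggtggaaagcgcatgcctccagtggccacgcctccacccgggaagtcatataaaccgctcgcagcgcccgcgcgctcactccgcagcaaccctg
Gadd45g, chr13:51846425-51846674, plus strand: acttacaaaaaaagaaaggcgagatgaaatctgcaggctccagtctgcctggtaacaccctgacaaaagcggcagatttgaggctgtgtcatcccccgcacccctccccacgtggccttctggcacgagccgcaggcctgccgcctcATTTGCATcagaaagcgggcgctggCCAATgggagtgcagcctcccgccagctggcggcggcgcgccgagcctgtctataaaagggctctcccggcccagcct
All 3 windows held more G and C (59.2%, 65.2% and 62% for Gadd45a, Gadd45b and Gadd45g) than the median window (52.4%). CCAAT, the letters that the factor NF-Y binds, occurred 1, 2 and 1 times in that order on either strand, and 33.8% of 32851 promoter windows of this length hold it. The octamer, known as the binding sequence of POU-domain factors such as Oct-1, occurred 2 times for Gadd45a, 0 times for Gadd45b and 1 time for Gadd45g, against 1.6% of all windows. It was looked for after the sequences had been seen. The E-box CANNTG, which myogenic factors and many others bind, occurred 1, 1 and 3 times (66.2% of windows), and CACGTG was one form of it for Gadd45b and for Gadd45g. One E-box of each of Gadd45a and Gadd45g overlaps an octamer. TGANTCA (AP-1; 6.75% of windows), TGACGTCA (CREB and ATF; 1.55%), TTCNNNGAA (STAT; 7.02%) and TGTTTAC (FoxO; 3.17%) were not in these 3 windows on either strand.

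In growing cells the family was led by Gadd45g in both genotypes, and all 3 genes had higher means in tKO cells. These GM values are the ones that chose the genes, so they are given as a description with no test. Gadd45g, the cytokine-responsive member, measured 34.4, 48.1, 43.7 and 69.0 FPKM in the control GM libraries, in the order population 1 BR1, population 1 BR2, population 2 BR1 and population 2 BR2. In the tKO GM libraries it measured 101, 240, 74.2 and 140 FPKM, in the same order of clones and replicates. Every tKO library lay above every control library, the nearest values being 74.2 and 69.0, and in both clones BR2 was the higher replicate. The tKO mean was 2.84 times the control mean (139 ± 72.8 against 48.8 ± 14.6 FPKM, SD, n = 4). On the log2(FPKM + 1) scale the difference was 1.40, the 12th highest of 11832 genes.

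Gadd45b, the NF-kB and TGF-beta target, measured 13.4, 13.5, 16.2 and 18.0 FPKM in control GM and 30.3, 61.3, 23.5 and 35.4 FPKM in tKO GM. The groups again did not overlap, and clone 1 BR2 was the highest library, as for Gadd45g. The means were 15.3 ± 2.21 and 37.6 ± 16.5 FPKM, a 2.46-fold difference, or 1.17 on the log2(FPKM + 1) scale. Gadd45a was the least abundant member in GM, with 3.11, 3.59, 3.08 and 4.12 FPKM in control cells and 4.14, 8.74, 4.09 and 7.17 FPKM in tKO cells. Here the groups overlapped by a narrow margin, since clone 2 BR1 (4.09) lay below population 2 BR2 (4.12). The mean was 3.47 ± 0.489 FPKM in control and 6.03 ± 2.31 FPKM in tKO cells, a 1.74-fold difference, or 0.60 on the log2(FPKM + 1) scale.

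BR2 lay above BR1 in all 4 lines for each of the 3 genes, controls included, and the SDs of the tKO group were larger than those of the controls. Within BR1 the tKO mean was 1.33, 1.81 and 2.24 times the control mean for Gadd45a, Gadd45b and Gadd45g. Within BR2 it was 2.06, 3.07 and 3.25 times, with no overlap in either replicate number for any of the 3. Only 2 libraries a group stand behind each of these ratios, and the share of all genes without overlap there was not counted. As background for these descriptions, limma called 0.549% of 11832 genes higher and 1.51% lower in tKO GM, and in 5.38% of genes every tKO GM library lay above every control GM library. Nothing is read from the members' place against these shares, because the GM contrast chose them.

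**Figure D1:**
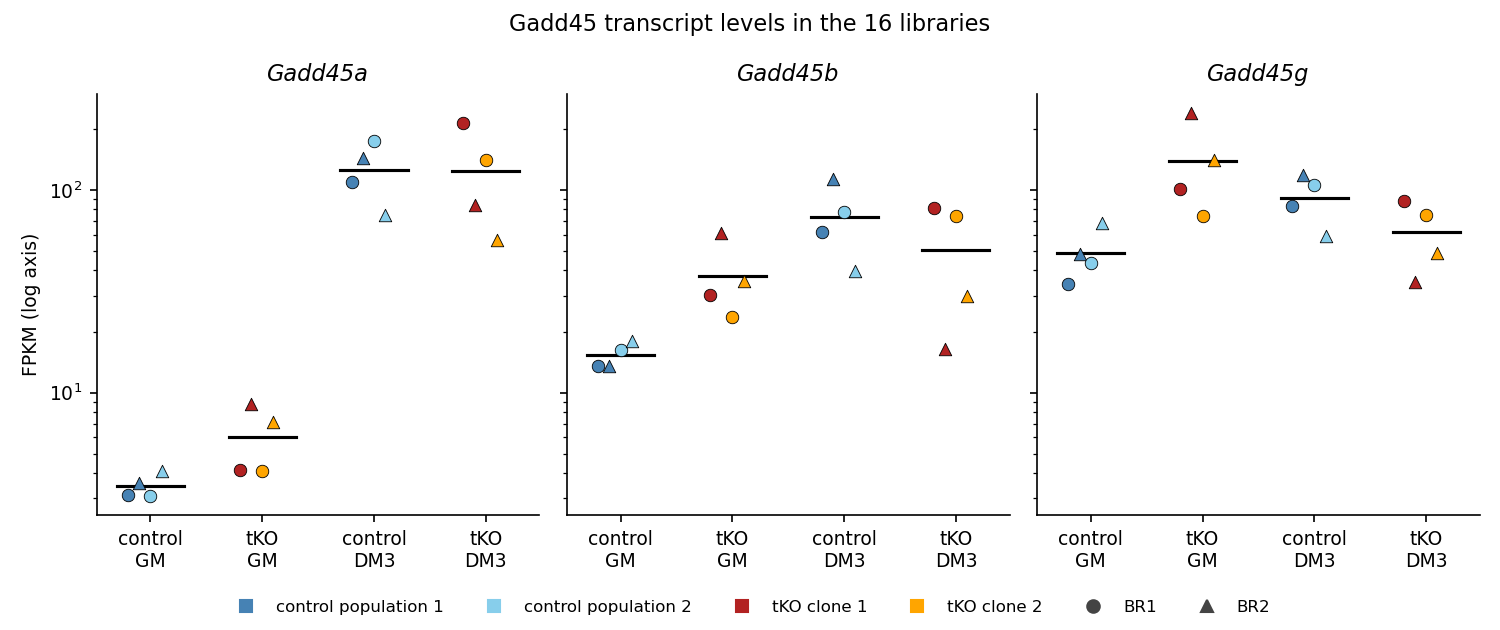
FPKM of Gadd45a, Gadd45b and Gadd45g (log axis) in each of the 16 libraries, by group, with 4 libraries in each; colours mark the line, shapes the replicate number, and bars the group mean. Gadd45a stands between 3.08 and 8.74 FPKM in GM and between 56.7 and 213 FPKM in DM3, while the Gadd45g values of the stages overlap.

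In differentiated cells no member differed by genotype beyond the spread between libraries. This comparison rests on libraries that did not choose the genes. Gadd45g measured 82.9, 118, 105 and 58.9 FPKM in control DM3 and 87.8, 35.0, 75.5 and 48.6 FPKM in tKO DM3. The groups overlapped: both clones' BR1 libraries lay among the controls, and both clones' BR2 libraries lay below all 4 controls. The tKO mean was 0.676 times the control mean (61.7 ± 24.2 against 91.3 ± 26.1 FPKM, SD, n = 4), and the log2 difference of −0.60 had an SE of 0.345 and a 95% interval from −1.33 to 0.13 (limma adjusted p = 0.399).

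Gadd45b measured 61.8, 113, 77.6 and 39.9 FPKM in control DM3 and 81.6, 16.3, 74.2 and 29.8 FPKM in tKO DM3. Again both clones' BR2 libraries were the lowest values and their BR1 libraries sat among the controls. The tKO mean was 0.690 times the control mean (50.5 ± 32.2 against 73.1 ± 30.8 FPKM), with a log2 difference of −0.70, an SE of 0.427 and a 95% interval from −1.60 to 0.21 (limma adjusted p = 0.432). Gadd45a measured 109, 143, 174 and 75.0 FPKM in control DM3 and 213, 84.0, 141 and 56.7 FPKM in tKO DM3. The highest and the lowest library of the 8 were both tKO, and the means of 125 ± 42.9 and 124 ± 69.0 FPKM were close. The log2 difference was −0.13 with an SE of 0.342 and a 95% interval from −0.85 to 0.60 (limma adjusted p = 0.894), so a change of up to 0.60 in size in either direction lies inside the interval.

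The count of members called in DM3 was 0 of 3, beside 2.02% of 11832 genes called higher and 1.36% called lower. Two-sided exact permutation tests over the 70 arrangements of 8 libraries gave p = 0.771, 0.286 and 0.171 for Gadd45a, Gadd45b and Gadd45g (0.771, 0.400 and 0.300 adjusted over the 7 such tests run here). The direction differed between the replicate numbers. Within BR1 the DM3 tKO mean was 1.25, 1.12 and 0.867 times the control mean, with overlapping lines, whereas within BR2 it was 0.645, 0.302 and 0.472 times, and Gadd45b and Gadd45g did not overlap. Only 2 libraries a group stand behind each of these ratios, so they carry no test. The share of all genes without overlap in such a split was not counted.

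Differentiation moved the family from Gadd45g toward Gadd45a. Gadd45a, the p53 and ATF4 target, rose in both genotypes and in each of the 8 pairs of line and replicate number. In control cells its mean was 36.1 times higher in DM3 (log2 difference 4.76, SE 0.342, limma adjusted p = 1.6e-08), the 18th highest difference of 11832 genes. In tKO cells it was 20.5 times higher (4.03, SE 0.342, limma adjusted p = 8.01e-08), the 23rd highest. The exact permutation test, two-sided over 4 against 4 libraries, gave p = 0.0286 in each genotype, the smallest it can give, and 0.0667 adjusted over 7 tests, which does not pass. The tests are not fully independent of the choice of genes, since Gadd45a followed Gadd45g in the GM libraries (Pearson r = 0.952). No DM3 library came near a GM library, the nearest being 56.7 and 8.74 FPKM. Among 11832 genes, 24.5% had all control DM3 libraries above all control GM libraries, and 19.3% had the same in tKO cells. By level, Gadd45a moved from between the 23.2 and 27.7 percentiles of these genes in control GM to between the 92.7 and 97.1 percentiles in control DM3. The fold ran from 18.2 to 56.6 over the 4 control pairs and from 7.91 to 51.4 over the 4 tKO pairs, and both clones' BR2 pairs gave the smallest values, 9.61 and 7.91.

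Gadd45b rose in control cells and did not pass the test in tKO cells. The GM libraries in these tests are those whose Gadd45g values chose the genes, and Gadd45b followed Gadd45g there (Pearson r = 0.979). These tests are thus not independent of the choice, and no difference between the genotypes is read from them. The control mean of Gadd45b was 4.78 times higher in DM3 (log2 difference 2.10, SE 0.427, limma adjusted p = 0.000485), with no overlap between the stages (two-sided exact permutation p = 0.0286, adjusted 0.0667). Without control population 1 the difference was 1.65 and no longer passed (limma adjusted p = 0.0634). In tKO cells the mean was 1.34 times higher in DM3, the stages overlapped, and the log2 difference of 0.23 (SE 0.427, 95% interval −0.67 to 1.14) did not pass (limma adjusted p = 0.656; exact permutation p = 0.743, adjusted 0.771). The tKO lines split by replicate number: both BR1 pairs gave higher values in DM3 (2.69 and 3.15 times), and both BR2 pairs gave lower ones (0.266 and 0.843 times). Fitted on BR1 libraries alone the tKO difference was 1.51 and on BR2 libraries alone −1.04, given with no test because the split was made after these pairs had been seen.

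Gadd45g, whose GM values chose the set, is described without a test. Its control mean was 1.87 times higher in DM3 and its tKO mean was 0.445 times its GM value, with overlap between stages in both genotypes. In control cells 3 of the 4 pairs were higher in DM3, by 2.41 to 2.46 times, and population 2 BR2 was 0.854 times its GM value. In tKO cells the BR1 pairs were close to level (0.870 and 1.02 times) and the BR2 pairs were lower (0.146 and 0.348 times). As background, limma called 23.2% of genes higher and 38.3% lower in control DM3 and 24.9% higher and 36% lower in tKO DM3. The median of all genes was −0.153 in the control contrast and −0.123 in the tKO contrast, and median-of-ratios scaling brought these to 0.0125 and 0.00828. With that scaling 50% of the calls in control cells were higher, against 37.7% with the deposited FPKM, and 50.1% against 40.9% in tKO cells. The directions of Gadd45a and Gadd45b stayed as given under it.

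**Figure D2:**
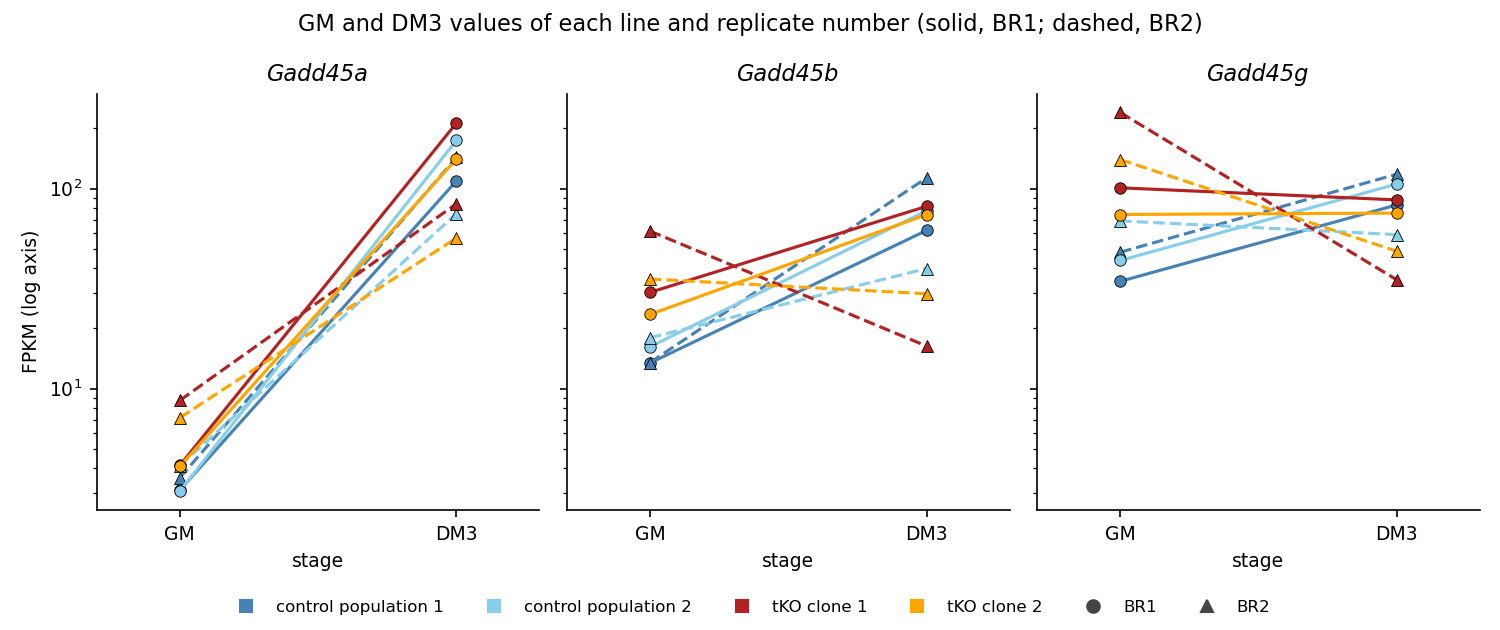
FPKM (log axis) of each gene in GM and DM3, with a line joining the 2 libraries that share a line and a replicate number (solid BR1, dashed BR2). All 8 lines climb for Gadd45a, while for Gadd45b and Gadd45g the dashed tKO lines fall from 61.3 to 16.3 and from 240 to 35.0 FPKM in clone 1.

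The genotype-by-stage term compares the DM3 change of tKO cells with that of control cells. The GM values that chose the genes enter it, so it is given as a description with no test. It was −0.73 for Gadd45a, −1.87 for Gadd45b and −1.99 for Gadd45g on the log2 scale, and a difference between genotypes in the response of a member is not shown. As background, limma called 0.254% of 11832 genes in either direction.

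No member passed a test between the lines of a genotype. Averaged over the stages, control population 2 minus control population 1 was −0.027, −0.13 and 0.050 on the log2 scale for Gadd45a, Gadd45b and Gadd45g, with 95% intervals of −0.84 to 0.79, −1.12 to 0.86 and −0.73 to 0.83. Clone 2 minus clone 1 was −0.36, −0.11 and −0.24 (limma adjusted p = 0.638, 0.920 and 0.746). The background was 0% of 11832 genes for the control populations by limma, with 42 genes at an unadjusted p under 0.05, and 5.41% for the clones.

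Summed over the family, the control level rose from 67.6 ± 16.9 FPKM in GM to 290 ± 93.9 FPKM in DM3, and the tKO level went from 182 ± 91.4 to 236 ± 122 FPKM (SD, n = 4). FPKM is scaled to gene length, so the members can be set side by side. Gadd45g made up 71.6% ± 3.80 of the sum in control GM and 75.4% ± 2.06 in tKO GM, with Gadd45b at 23.1% and 21.2%. Gadd45a contributed 5.25% ± 0.697 and 3.46% ± 0.608. In DM3 Gadd45a held the largest mean share, 43.3% ± 4.32 in control and 52.0% ± 8.72 in tKO cells, ahead of Gadd45g at 31.9% and 27.7%. Gadd45b was last there, at 24.8% and 20.3%. The order of levels in GM, Gadd45g above Gadd45b above Gadd45a, held in all 8 libraries of that stage. In DM3 Gadd45a was the highest member in all 8 and Gadd45b the lowest in all 8, although the means of Gadd45b and Gadd45g differed by less than the SD of either.

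**Figure D3:**
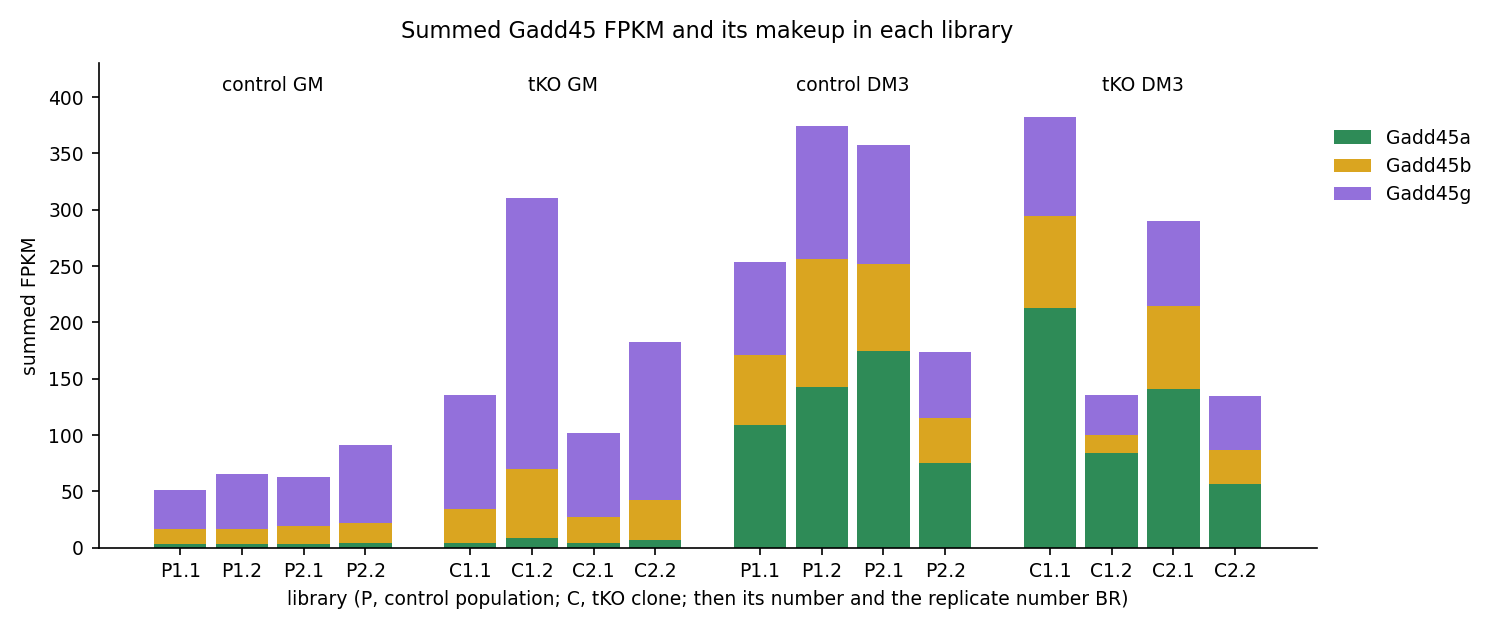
Summed FPKM of the 3 genes in each library, stacked by gene, for control populations (P) and tKO clones (C) with their number and replicate number. The bars of control GM reach 51.0 to 91.1 FPKM and are mostly Gadd45g, and in both DM3 groups the largest segment is Gadd45a.

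The 3 genes varied together from library to library within a stage. Over the 8 DM3 libraries Gadd45b and Gadd45g gave Pearson r = 0.976 and Spearman rho = 0.952 (exact permutation p = 0.000446 and 0.00114, adjusted over 6 relations 0.00268 and 0.00685). Without the 2 libraries farthest from the median of Gadd45b, clone 1 BR2 and clone 2 BR2, r was 0.906. Within the 4 BR2 libraries r was 0.999, and within the 4 BR1 libraries, whose values span a narrow range, it was 0.361, so the relation was not seen within BR1. Gadd45a with Gadd45b gave r = 0.772 and rho = 0.857 (exact permutation p = 0.0299 and 0.0107, adjusted 0.0669 and 0.0321), and r = 0.780 without 2 libraries. Gadd45a with Gadd45g gave r = 0.762 and rho = 0.810 (exact permutation p = 0.0334 and 0.0218, adjusted 0.0669 and 0.0436), and r = 0.800 without 2 libraries. Within BR1 and BR2 the r of Gadd45a was 0.954 and 0.719 with Gadd45b, and 0.466 and 0.750 with Gadd45g. The libraries share lines, which these tests do not take into account.

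No relation of the 3 genes with the myogenic regulator Myog passed across the DM3 libraries (r = 0.15 for Gadd45a, −0.22 for Gadd45b and −0.32 for Gadd45g, with rho of 0.24, 0.14 and −0.048, exact permutation p from 0.432 to 0.713 for r and from 0.582 to 0.935 for rho, adjusted p from 0.648 to 0.713 and from 0.873 to 0.935). Without the 2 farthest libraries r with Myog was −0.63, 0.097 and −0.22, and the adjusted values belong to the same 6 relations. In GM the pairwise r among the 3 genes was 0.920, 0.952 and 0.979, given without a test because those libraries chose the genes.

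**Figure D4:**
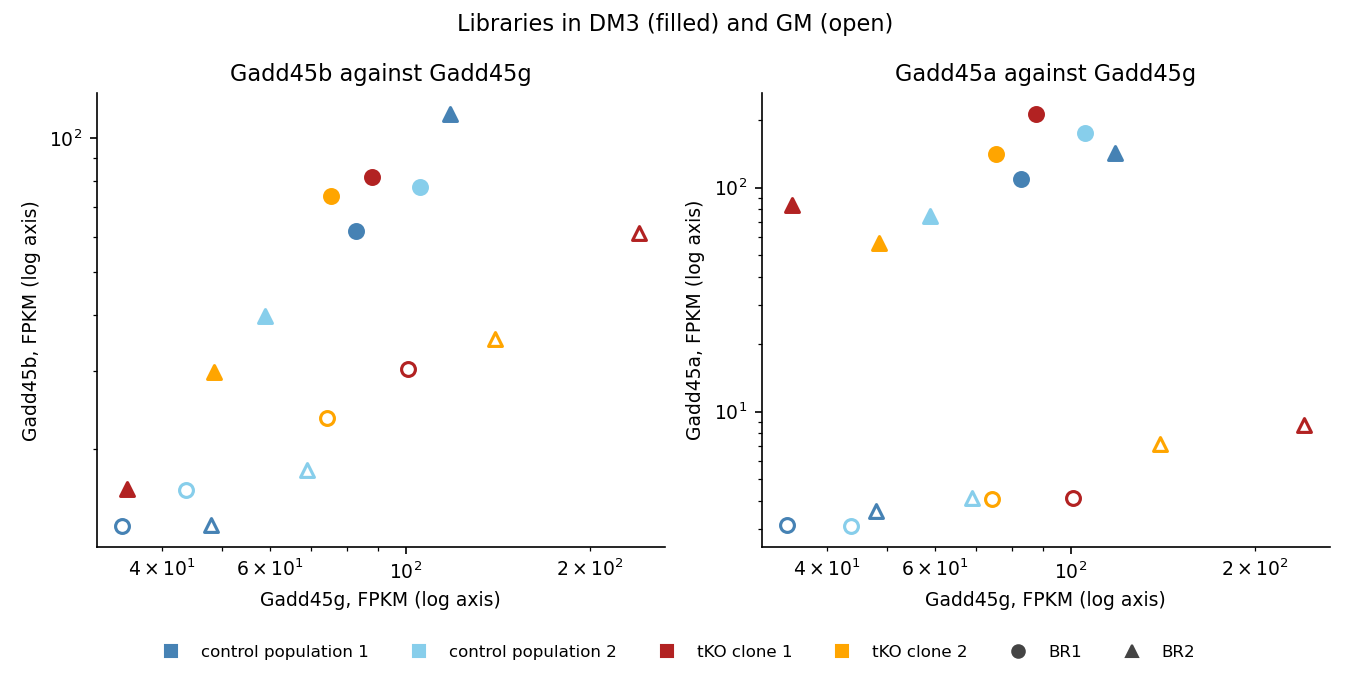
Gadd45b (left) and Gadd45a (right) against Gadd45g in the 16 libraries, all in FPKM on log axes, with DM3 filled and GM open. Within each stage the points climb together, and the DM3 points of Gadd45a lie at 56.7 FPKM and above while its GM points lie at 8.74 FPKM and below.

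The genes whose pattern was most like each member were ranked by Pearson r of log2(FPKM + 1), as a description over 16 libraries that share stages and lines. The GM libraries whose Gadd45g values chose the genes are among them, so nothing is read from the ranks of the members. Gadd45a was most like Adipor1 (r = 0.992), Stbd1 (0.989) and Akap8l (0.988), of which Stbd1, a glycogen-binding protein, went from 14.3 ± 1.01 FPKM in control GM to 95.9 ± 10.5 in control DM3. Gadd45b was most like the noncoding Snhg6 (0.937), Osgin1 (0.935) and Phldb3 (0.931), and Gadd45g was most like the noncoding Snhg5 (0.898), Gm11974 (0.881) and the elongation factor gene Ell (0.875). Over all 16 libraries the members were less alike: r was 0.740 for Gadd45a with Gadd45b, 0.111 for Gadd45a with Gadd45g and 0.691 for Gadd45b with Gadd45g. After the mean of each stage was subtracted, Gadd45b and Gadd45g were each other's second most similar gene of 11831 (r = 0.928). Among the genes most like Gadd45a by that measure, Gadd45b ranked 55 (0.825) and Gadd45g ranked 85 (0.798). Gm11974 was first for Gadd45b (0.930) and second for Gadd45a (0.921), behind the proteasome subunit Psmd8 (0.925) and ahead of Fam46b (0.895). Rabggtb (0.945) was first for Gadd45g, with Ube2d3, a ubiquitin-conjugating enzyme, in the third place (0.916), and Grasp was the third for Gadd45b (0.920).

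Counts of called genes in the lists are read beside the share of all 11832 genes called, which between genotypes was 0.549% higher and 1.51% lower in tKO GM, and 2.02% higher and 1.36% lower in tKO DM3. Among the signals known to act upstream, the ATF4 and CHOP stress genes had the highest list median on differentiation. In control cells 8 of 13 rose in DM3 and 0 fell, beside 23.2% and 38.3% of all genes, with a median log2 difference of 1.27. In tKO cells 9 of 13 rose and 0 fell, beside 24.9% and 36%, with a median of 1.26. Ddit3, which encodes CHOP, rose in control cells from 28.3 ± 2.93 to 458 ± 276 FPKM (log2 difference 3.60, limma adjusted p = 0.00063) and did not pass in tKO cells (1.49, limma adjusted p = 0.0995). Chac1 (3.38, limma adjusted p = 0.000154) and Trib3 (3.31, limma adjusted p = 4.77e-05) rose with it in control cells. Atf4 itself was 105 ± 15.3 and 174 ± 84.9 FPKM in control cells (limma adjusted p = 0.0968) and passed only under median-of-ratios scaling, with which 11 of 13 rose. Ppp1r15a, encoding the eIF2α phosphatase subunit GADD34, rose in control cells (1.27, limma adjusted p = 0.0292). In tKO cells its log2 difference was 0.08 and did not pass (limma adjusted p = 0.900). The genotype-by-stage term passed for neither Ddit3 nor Ppp1r15a (limma adjusted p = 0.498 and 0.542), so no difference between the genotypes is read here.

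The DM3 values of Ddit3 were low in the libraries in which those of the Gadd45 genes were low. They were 547, 462, 740 and 82.6 FPKM in control DM3 and 592, 65.4, 531 and 44.3 FPKM in tKO DM3, with population 2 BR2 and both clones' BR2 libraries the 3 lowest of the 8. The BR2 library of control population 1 stood with the BR1 libraries instead. The same 3 libraries held the 3 lowest of the 8 values for each of Gadd45a, Gadd45b and Gadd45g. They also held the 3 lowest of Ppp1r15a (6.37, 9.79 and 5.86 FPKM). Atf4 did not follow in clone 1, where it measured 141 FPKM in BR1 and 157 FPKM in BR2. What part the difference between these libraries has in these values was not tested. How many of all genes had the same 3 libraries lowest was not counted, so the pattern is not read as particular to the named genes. In GM 0 of 13 ATF4 and CHOP genes passed the genotype test, although the list's median difference was 0.56 beside −0.012 over all genes. Ddit3 measured 28.3 ± 2.93 FPKM in control and 64.4 ± 23.2 FPKM in tKO GM (limma adjusted p = 0.485).

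Of 27 genes of the p53 list, which holds Trp53 and its targets, 11 rose and 5 fell in control DM3, beside 23.2% and 38.3% of all genes. In tKO DM3 10 rose and 8 fell, beside 24.9% and 36%. Trp53 was among those that fell, from 49.0 ± 2.30 to 18.4 ± 1.57 FPKM in control cells (−1.37, limma adjusted p = 3.32e-07). Bbc3, encoding the pro-apoptotic PUMA, rose by 2.44 (limma adjusted p = 1.23e-05) and the death receptor gene Fas by 1.53 (limma adjusted p = 2.84e-05). Cdkn1a, encoding p21, a Gadd45 partner and p53 target, rose by 0.98 in control cells (limma adjusted p = 0.0107) and by 0.73 in the clones (limma adjusted p = 0.0466). No p53 gene passed a genotype test in either stage. With median-of-ratios scaling the control count became 15 higher and 4 lower.

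The NF-kB list had 5 of 13 genes higher and 3 lower in control DM3, and 5 higher and 2 lower in tKO DM3, and the share higher was above and the share lower below that of all genes (23.2% and 38.3% in control, 24.9% and 36% in tKO cells). Relb, a subunit of the noncanonical pathway, rose by 0.96 (limma adjusted p = 3.79e-06), whereas Nfkb1 fell by 1.11 (limma adjusted p = 2.26e-05) and the chemokine gene Ccl2 fell by 4.44 (limma adjusted p = 5.08e-07). The TGF-beta list had 3 of 12 higher and 4 lower in control DM3 and 5 higher and 5 lower in tKO DM3, of which the control counts were near the same shares of all genes. Its ligand genes Tgfb2 and Tgfb3 rose by 1.71 and 1.75 in control cells (limma adjusted p = 1.71e-05 and 4.56e-06), and the target Ctgf fell by 2.67 (limma adjusted p = 0.00501). Neither list had a gene past the genotype test in GM or DM3.

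Cytokine signalling through STAT3 was the one upstream list with several genotype differences, all of them lower in tKO cells. Of 11 genes, 3 were lower in tKO GM (Lifr, Stat3 and Il6st) and 1 in tKO DM3 (Lifr), beside 1.51% and 1.36% of all genes. The receptor subunit gene Lifr measured 4.85 ± 0.843 FPKM in control GM and 0.849 ± 0.158 in tKO GM (log2 difference −1.65, SE 0.282, limma adjusted p = 0.00477), and 11.7 ± 4.34 and 2.80 ± 1.70 FPKM in DM3 (−1.81, limma adjusted p = 0.00134). Stat3 fell from 17.5 ± 1.14 in control to 11.4 ± 1.38 FPKM in tKO GM (−0.59, limma adjusted p = 0.0023) and Il6st, encoding gp130, from 26.9 ± 1.99 to 18.2 ± 2.32 (−0.54, limma adjusted p = 0.0108). In DM3 Stat3 was 0.98 higher than in GM in control cells (limma adjusted p = 2.23e-07) and 1.38 higher in tKO cells (limma adjusted p = 5.89e-09).

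Of the FoxO and muscle atrophy genes, 9 of 13 rose and 1 fell in DM3 in each genotype, beside 23.2% and 38.3% of all genes in control and 24.9% and 36% in tKO cells. The atrophy ubiquitin ligase genes Fbxo32 (1.54 in control, limma adjusted p = 4.37e-07) and Trim63 (1.49, limma adjusted p = 0.000301) were among them, with Trim63 at 2.04 ± 1.06 FPKM in control DM3. Of 19 immediate early genes 5 rose and 2 fell in control DM3 and 7 rose and 4 fell in tKO DM3, the control count of higher genes being near the share of all genes. Atf3 rose by 2.50 (limma adjusted p = 7.57e-05), Nr4a1 rose by 2.26 (limma adjusted p = 2.86e-05) and Fosl1 fell by 3.00 (limma adjusted p = 3.97e-05). Neither list had a gene past the genotype test.

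Of 8 genes of proteins that Gadd45 binds, 5 fell (Pcna, Cdk1, Ccnb1, Gadd45gip1 and Npm1) and 1 rose (Cdkn1a) in DM3 in each genotype, beside 38.3% of all genes lower in control and 36% in tKO cells, and 0 passed the genotype test in GM or DM3. Pcna, the sliding clamp of DNA replication, went from 136 ± 11.9 to 27.8 ± 4.40 FPKM in control cells (−2.26, limma adjusted p = 9.37e-09). Cdk1 fell by 1.41 (limma adjusted p = 3.29e-06) and Ccnb1 by 1.80 (limma adjusted p = 6.65e-05), and the summed FPKM of 5 cycling-cell markers, these 3 among them, went from 365 to 428 in control GM to 92.6 to 111 in control DM3. Map3k4, the kinase that Gadd45 proteins activate, did not pass in any comparison and measured 4.66 ± 0.755, 3.99 ± 0.980, 4.26 ± 0.515 and 4.40 ± 0.392 FPKM, with GM before DM3 and control before tKO in each stage. Map2k7, which Gadd45b is known to bind and inhibit, measured 22.4 ± 3.12 and 25.6 ± 2.51 FPKM in control GM and DM3 (limma adjusted p = 0.166), and with median-of-ratios scaling it was called higher in DM3 in both genotypes.

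Of the p38 and JNK kinase genes, 1 of 16 was lower in tKO cells in each stage, and it was Mapk12, the muscle-enriched p38γ, beside 1.51% of all genes lower in GM and 1.36% in DM3. It measured 5.67 ± 0.370 FPKM in control GM and 3.16 ± 0.406 in tKO GM (−0.69, SE 0.119, limma adjusted p = 0.00542), and 8.44 ± 0.623 and 3.40 ± 0.675 FPKM in DM3 (−1.11, limma adjusted p = 2.99e-05). Mapk11 and Mapk14, encoding p38β and p38α, fell on differentiation in control cells by 1.34 (limma adjusted p = 2.93e-07) and 0.82 (limma adjusted p = 2.69e-05). In all, 2 of these genes rose and 5 fell in control DM3, and 1 rose and 7 fell in tKO DM3. The shares that fell were near those of all genes (38.3% and 36%), while the shares that rose were lower than theirs (23.2% and 24.9%). With median-of-ratios scaling 3 rose and 5 fell in control DM3, and 3 rose and 6 fell in tKO DM3.

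Of the DNA methylation and demethylation genes, 1 of 14 passed the genotype test in GM, the cytidine deaminase gene Apobec1, at 2.42 ± 0.459 FPKM in control libraries against 0.470 ± 0.247 FPKM in the clones (−1.23, limma adjusted p = 0.00371). In DM3 0 passed, with Apobec1 at an adjusted p of 0.0862 by limma, and it passed there under both other scalings. On differentiation 3 rose and 7 fell in control cells, and 5 rose and 6 fell in tKO cells, beside the shares of all genes (23.2% higher and 38.3% lower in control, 24.9% and 36% in tKO cells). The maintenance methyltransferase gene Dnmt1 fell by 1.49 (limma adjusted p = 2.43e-08) and its partner Uhrf1 by 2.55 (limma adjusted p = 2.38e-08), while Apobec2 rose by 1.99 (limma adjusted p = 1.36e-05).

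**Figure D5:**
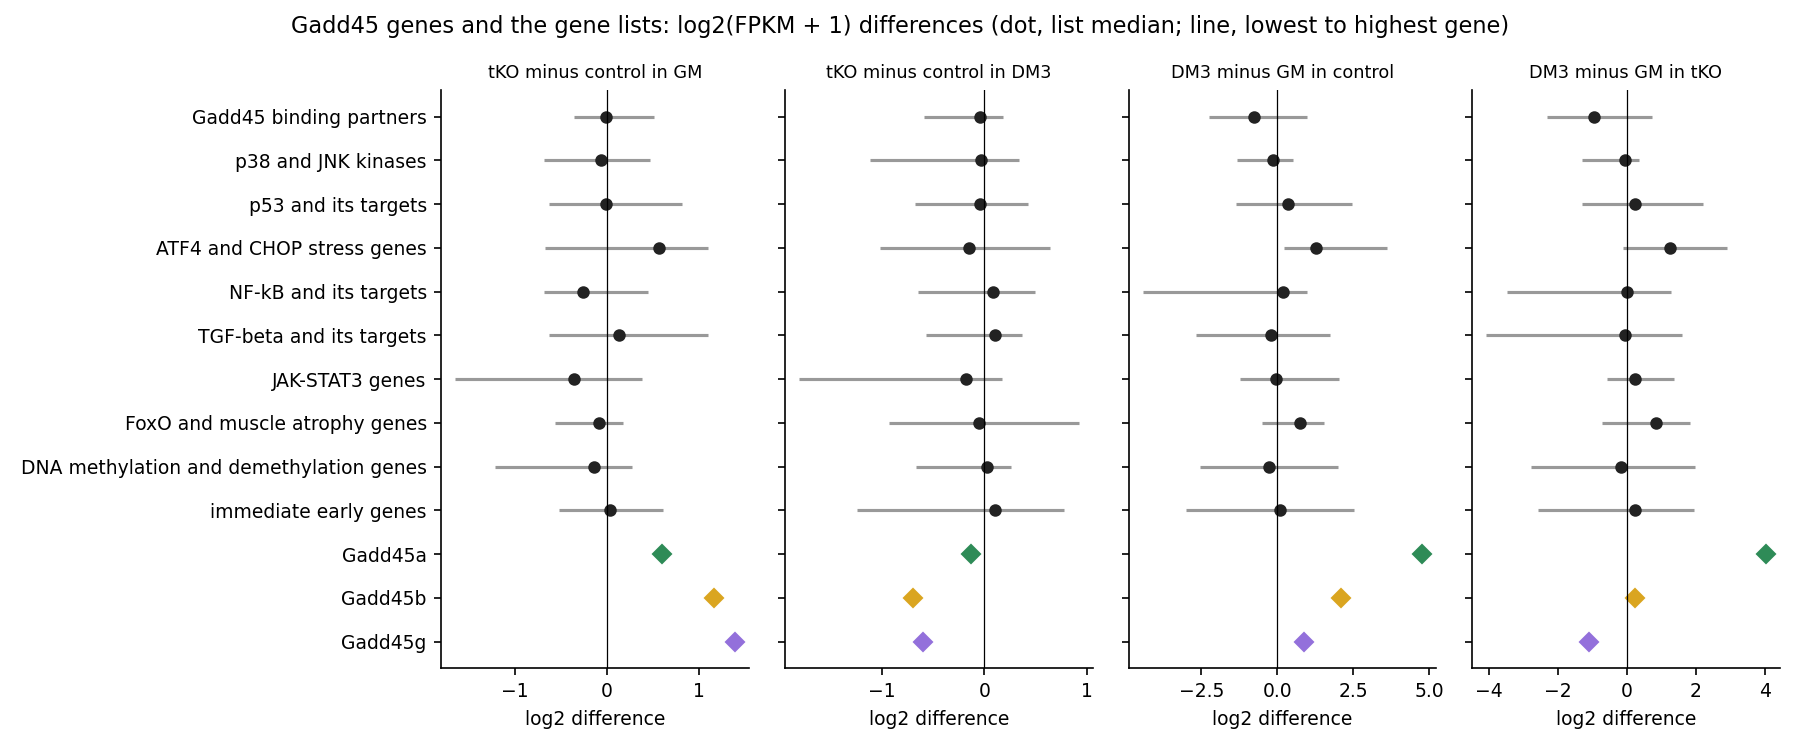
Differences in log2(FPKM + 1) for the 10 gene lists (dot, median; line, lowest to highest gene) and for Gadd45a, Gadd45b and Gadd45g (diamonds) in the 4 comparisons, each panel with its own axis. Gadd45a lies at 4.76 and 4.03 in the panels of DM3 minus GM, and the ATF4 and CHOP list has the highest list medians there, 1.27 and 1.26.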

How the data were processed

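The table gives FPKM per gene and library, made by the authors from poly(A)-enriched Illumina libraries. STAR, DESeq and build mm10 are named, without roles, in the submitters' processing notes, and the annotation and the use of strand are not given in the sources used here. FPKM times gene length came out within 0.1 of a whole number of fragments for at least 99.9% of values in every library, which gave the depth. Gadd45a rested on 109 to 270 fragments in GM and on 2158 or more in DM3. Every per-sample column was mapped to a labelled library.

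Genes with a mean of at least 0.5 FPKM were fitted with limma 3.58.1 (R 4.3.3) on log2(FPKM + 1), a scale that understates changes of low genes. Group means over all 16 libraries shared one estimate of the spread, with trend and robust moderation, and contrasts between lines used means of line and stage. P-values were adjusted by Benjamini-Hochberg over all 11832 genes, and genes were called at an adjusted p under 0.05. The script was also run on simulated counts that held no line or replicate effects, so that run does not speak to such effects here. Exact permutation tests and correlations used scipy 1.17.1. Motifs were searched on both strands of the 250 bases before each start, leaving out the 50 bases after it that a planned window would have held. The reference tables matched all 3 genes by symbol.

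The members and lists were chosen with earlier results of these data known. Named genes are the members, a fixed set of partners and regulators (Map3k4, Pcna, Cdk1, Ccnb1, Cdkn1a, Map2k7, Gadd45gip1, Trp53, Atf4, Ddit3, Ppp1r15a, Myog), the 3 genes most like each member by each measure of likeness, and from each of 10 lists up to 4 genes of the largest size called in a genotype comparison and up to 3 called in control differentiation. Of 2 rows named Map3k4, the one with fragments was used. The replicate numbers were not used as pairs, since no label ties them to a shared day and not every same-numbered pair in DM3 deviated together. Alternatives covered the pseudocount, filter, scaling, moderation, libraries fitted, line, replicate number, fragment numbers by voom, and leaving out each library or line.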

Additional observations from a re-analysis of the deposited data

How the results depend on the processing

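Gadd45a kept its rise in DM3 past the threshold in both genotypes under all 36 alternatives run for each (log2 4.43 to 5.12 in control and 2.97 to 5.09 in tKO cells). Gadd45b kept its call in control differentiation under 35 of 36, the exception being without control population 1 (1.65). No alternative brought a member past the threshold between genotypes in DM3. The cause of the changes that follow was not tested.

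With the replicate number as a replicate block the interaction was called for 49 genes against 30, and with a block within each stage 635 genes were called in GM, 748 in DM3 and 125 for the interaction, against 244, 400 and 30. The block, and a block of line and replicate number chosen after seeing the data, changed no call of Gadd45a or Gadd45b. Same-numbered libraries deviated together with r above 0.1 in 7 of 8 pairs across genotypes in GM (mean 0.25), 5 of 8 in DM3 (0.187) and 6 of 8 across stages within a line (0.2). Pairs with different numbers did so in 0, 1 and 4 of 8 (means −0.249, −0.188 and 0.0301). In GM every same-numbered pair had a positive r (0.0955 to 0.452) and every other pair a negative one (−0.419 to −0.0558). Group means were subtracted first, so positive r of some pairs across genotypes forces negative r of others. The negative values are therefore not separate evidence. Same-numbered pairs across stages were also all positive (0.0771 to 0.323), whereas those in DM3 ran from −0.224 to 0.558. A replicate effect is thus visible throughout GM and in part of DM3, and the main fit did not model it. No label ties the numbers to a shared day.

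Genes called moved further with the pseudocount at 0.1 (13 for the interaction), a filter of 5 FPKM (93 in GM and 231 in DM3, with fewer genes tested), quantile scaling (51 for the interaction), only the 8 compared libraries (113 in DM3) and line averages as units (97, 131 and 1 in GM, DM3 and the interaction). Without control population 1 the counts in GM, DM3, control differentiation and the interaction were 33, 49, 4440 and 0. At an unadjusted p under 0.05 the interaction of the full fit had 1278 genes. Without control population 2 they were 38, 64, 4693 and 1, against 7272 for control differentiation in full. Without clone 2, counts in GM, DM3 and the interaction were 1315, 1136 and 101. Without single libraries they ran from 80 (control population 1 GM BR1) to 749 (clone 2 GM BR1) in GM, from 208 (control population 1 DM3 BR2) to 854 (clone 1 DM3 BR1) in DM3, and from 6 (clone 2 DM3 BR2) to 179 (clone 1 DM3 BR1) for the interaction. Fits on BR1 or BR2 libraries alone were chosen after seeing the data. With BR1 alone 17, 47 and 0 genes were called in GM, DM3 and the interaction, and with BR2 alone 197 in DM3 and 2 for the interaction.

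Gadd45a in DM3 changed sign between genotypes without clone 2 (0.16) and with BR1 alone (0.32), and leaving out single libraries gave −0.45 to 0.18. Gadd45b in DM3 was 0.17 with BR1 alone. Gadd45b in tKO differentiation was −0.22 without clone 2, 1.51 with BR1 alone, −1.04 with BR2 alone and −0.085 to 0.67 without single libraries. Gadd45g in tKO differentiation was −0.088 with BR1 alone and −2.12 with BR2 alone, and the Gadd45a interaction was 0.0022 with BR1 alone. Leaving out single libraries moved the difference between control populations from −0.33 to 0.27 for Gadd45a, −0.37 to 0.11 for Gadd45b and −0.16 to 0.26 for Gadd45g, and that between clones from −0.67 to 0.45 for Gadd45b and −0.57 to 0.083 for Gadd45g. Where a line is left with 1 library in a stage, that library is assumed to vary like the others.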
